A study of Homo sapiens with 10 samples.

Results

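The genes of 7 matrix metalloproteinases (MMP1, MMP2, MMP3, MMP10, MMP14, MMP16 and MMP24) and 3 tissue inhibitors of metalloproteinases (TIMP1, TIMP2 and TIMP3) were followed in senescent and proliferating IMR90 cells, a normal human fibroblast line from fetal lung. A probe set, the group of short probes that reads a transcript on an Affymetrix array, was taken if the platform annotation gave it exactly 1 gene symbol and that symbol was among these 10. This gave 25 of the 54675 probe sets of the array. The senescent cells, on 5 arrays, had gone through 90 population doublings, and they were passaged to the end of growth and then kept in dishes for 2 weeks. The proliferating cells, on 5 arrays, had gone through 28 population doublings. The labels give no genetic change or added agent for either group, and all cells were grown in DMEM with 10% serum at 3% oxygen. The study gives 5 replicates of each state, and the labels do not tell whether these were 5 separate cultures, so a p-value here measures only the spread among these arrays, which may be technical. Growth state, the number of doublings and the 2 weeks in dishes cannot be told apart in this design.

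Matrix metalloproteinases are zinc enzymes that cut collagens, proteoglycans and other proteins of the extracellular matrix, and most of them are secreted by the cell as inactive proenzymes. TIMPs bind the active enzymes and block them, and TIMP2 also forms a complex with the membrane enzyme MMP14 that activates the MMP2 proenzyme. Fibroblasts make many of these proteins, and secreted metalloproteinases are among the factors described for senescent fibroblasts. The arrays measured RNA and neither protein nor enzyme activity.

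Of 10 genes, 5 were matched to an entry in the RefSeq promoter table (GRCh38.p14): MMP10, MMP14, MMP24, TIMP1 and TIMP3. The search left out the entries of a single chromosome, so a gene listed only there could not be matched. Whether another of the 10 genes had an entry there was not tested. The 250 bases before the annotated start are shown, 5′ to 3′ on the strand of the gene, for MMP10, TIMP1 and TIMP3, whose probe sets were higher in senescent cells, and for MMP14, for which no probe set was called. They are MMP10 at chr11:102780629-102780878 on the minus strand, MMP14 at chr14:22836335-22836584, TIMP1 at chrX:47582186-47582435 and TIMP3 at chr22:32801455-32801704, the last 3 on the plus strand. Capitals mark matches, on either strand, to TGANTCA (a loose form of the AP-1 site, N being any base), GGGCGG (the GC box) and TATAAA (the TATA box).
MMP10: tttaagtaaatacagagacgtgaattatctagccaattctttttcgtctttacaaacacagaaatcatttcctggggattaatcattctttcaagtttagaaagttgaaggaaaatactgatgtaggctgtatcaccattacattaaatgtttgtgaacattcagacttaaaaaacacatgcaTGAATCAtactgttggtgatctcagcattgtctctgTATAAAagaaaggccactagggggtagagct
MMP14: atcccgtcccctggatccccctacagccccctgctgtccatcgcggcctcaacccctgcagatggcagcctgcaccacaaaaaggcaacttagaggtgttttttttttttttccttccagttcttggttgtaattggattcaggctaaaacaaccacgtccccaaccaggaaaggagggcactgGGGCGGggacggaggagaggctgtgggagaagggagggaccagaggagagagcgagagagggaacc
TIMP1: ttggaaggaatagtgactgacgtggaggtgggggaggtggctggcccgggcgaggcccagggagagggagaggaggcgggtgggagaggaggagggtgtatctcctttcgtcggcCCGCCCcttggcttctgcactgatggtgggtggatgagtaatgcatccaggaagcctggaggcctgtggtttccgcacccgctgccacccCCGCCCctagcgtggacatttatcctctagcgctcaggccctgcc
TIMP3: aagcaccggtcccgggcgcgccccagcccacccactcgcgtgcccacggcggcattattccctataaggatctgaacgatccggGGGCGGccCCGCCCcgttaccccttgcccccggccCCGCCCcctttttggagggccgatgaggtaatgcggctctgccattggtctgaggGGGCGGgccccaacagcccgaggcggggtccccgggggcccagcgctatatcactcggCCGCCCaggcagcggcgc

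The MMP10 stretch was poor in G and C, at 34.4%, and held 1 AP-1 match starting 67 bases before the annotated start and 1 TATA match starting 31 bases before it. The TIMP3 stretch, at 72.4% G and C, held 5 GC boxes between 166 and 18 bases before the start, and the TIMP1 stretch, at 64.8%, held 2. MMP14, at 56.8%, had 1 GC box 66 bases before the start, and MMP24, at 77.6%, had 3. Over all 35116 promoters of the table the median G and C content was 58.0%, and TGANTCA was found in 6.57%, GGGCGG in 42.6% and TATAAA in 10.7%. These matches describe the letters of the windows, and no binding was measured.

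LMNB1, the lamin B1 gene, which is known to fall in senescent fibroblasts, had a log2 value of 5.42 ± 0.36 on senescent and 10.93 ± 0.09 on proliferating arrays (SD, n = 5 each). Array medians lay between 3.05 and 3.12 on the log2 scale of the deposited values. All 10 fibroblast markers lay above the 60th percentile of every array, which lay at 4.63 to 4.76, while 0 of 7 epithelial and 0 of 8 leukocyte markers did. The summed level of the epithelial list, on the log2 scale, was 5.74 to 6.16 on senescent and 7.23 to 7.37 on proliferating arrays, and that of the leukocyte list was 5.59 to 5.69 on senescent and 5.57 to 5.61 on proliferating arrays. TEK was the only 1 of 7 endothelial markers above that percentile, and the list summed to 10.46 to 10.69 on senescent and 9.65 to 10.06 on proliferating arrays. Of 6 smooth muscle markers, which fibroblasts can also express, 4 were above it, with sums of 13.27 to 13.45 on senescent and 12.50 to 13.01 on proliferating arrays. The signal of the ACTB 3′ control over its 5′ control, a sign of RNA or labelling quality, was 2.32 ± 0.10 (log2) on senescent and 2.07 ± 0.14 on proliferating arrays (SD, n = 5 each; exact permutation test, two-sided, p = 0.00794). For the GAPDH controls it was 0.12 ± 0.09 on senescent and -0.03 ± 0.18 on proliferating arrays (p = 0.135 by the same permutation test). The part of these differences in the results below was not tested, except for the ACTB control, which was also entered as a covariate.

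Of the 25 probe sets, 22 were tested, and the 10 genes each had at least 1 of them. A probe set was tested if it exceeded the 40th percentile of its array on at least 5 of the 10 arrays, and the 22 did so on all 10. In senescent cells 12 probe sets were higher, 1 was lower and 9 were not called, at an adjusted p under 0.05 by limma with Benjamini-Hochberg adjustment over all 32755 tested probe sets. Over the whole array 26.9% of tested probe sets were called higher and 26.1% lower. The groups did not overlap for 11 of the 22 tested probe sets, against 44.4% of all tested probe sets. The median difference, senescent minus proliferating, was 0.29 (log2) over the tested members and 0.03 over all tested probe sets. The 3 probe sets below the filter, 1566678_at of MMP2, 208166_at of MMP16 and 208387_s_at of MMP24, differed by 0.01 to 0.03 and were not called in a fit without the filter, with limma adjusted p-values of 0.14 to 0.46.

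**Figure D1:**
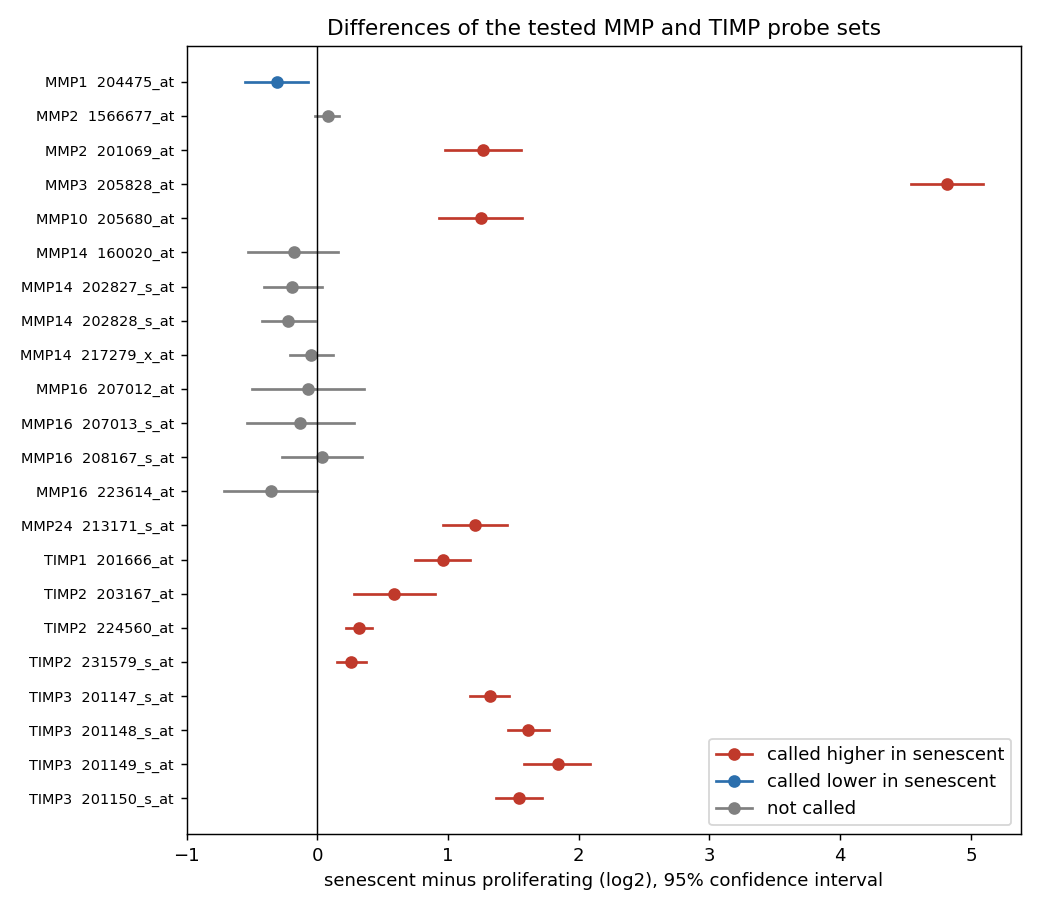
Difference in mean log2 value, senescent minus proliferating, for the 22 tested probe sets, with 95% confidence intervals from limma; red marks probe sets called higher in senescent cells, blue the 1 called lower and grey those not called. MMP3 stands at 4.82, the other called increases lie between 0.26 (TIMP2) and 1.84 (TIMP3), and the decrease of MMP1 is -0.31; after centring on 11 uniformly expressed genes the differences of TIMP2 probe sets 224560_at and 231579_s_at change sign to -0.10 and -0.17, and after centring on 17 classical reference genes that of MMP1 changes sign to 0.08.

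MMP3 had the strongest change among these genes. It encodes a stromelysin, an enzyme that cuts proteoglycans, fibronectin and laminin and can activate other proMMPs, proMMP1 included. On senescent arrays 1 to 5 its probe set 205828_at had log2 values of 8.89, 8.98, 8.70, 9.00 and 8.79, against 4.35, 3.77, 4.15, 4.24 and 3.78 on proliferating arrays 1 to 5. The lowest senescent value, 8.70, was far above the highest proliferating value, 4.35, and every proliferating array had MMP3 below its 60th percentile. The difference was 4.82 (SE 0.12, 95% confidence interval 4.54 to 5.09), a 28.2-fold higher level in senescent cells (limma adjusted p = 8.8e-10), and only 71 of the 32755 tested probe sets, 0.217%, had a greater increase. Because RNA was taken from whole cultures, more cells with MMP3 RNA and more MMP3 RNA per cell cannot be told apart, and the same holds for every gene below.

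MMP10, which encodes the other stromelysin tested, also rose, at low signal. Probe set 205680_at had values of 4.20, 4.62, 4.40, 3.94 and 4.05 on senescent arrays and 3.37, 2.87, 2.96, 2.84 and 2.91 on proliferating arrays. The groups did not overlap, although all 10 values were below the 60th percentile of their arrays. The difference was 1.25 (SE 0.14), or 2.38-fold (limma adjusted p = 3.6e-05).

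MMP1, the interstitial collagenase that opens the triple helix of fibrillar collagens, was called lower in senescent cells, a direction that turned (to 0.08) after centring on 17 classical reference genes. Its probe set 204475_at had values of 10.40, 10.37, 10.54, 10.42 and 10.01 on senescent arrays and 10.65, 10.43, 10.59, 10.73 and 10.88 on proliferating arrays. Senescent array 3 exceeded proliferating array 2, so the groups overlapped, and senescent array 5 was the lowest and proliferating array 5 the highest of the 10. The difference of -0.31 (SE 0.11, 95% confidence interval -0.55 to -0.07) amounted to a 1.24-fold lower level in senescent cells (limma adjusted p = 0.036). This call was weak: 25.6% of tested probe sets had a greater decrease, and the adjusted p was 0.063 with no filter on low values. Leaving out any 1 of proliferating arrays 1, 4 and 5 or senescent arrays 1, 2 and 5 gave an adjusted p of 0.054 to 0.08, with differences of -0.23 to -0.32.

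**Figure D2:**
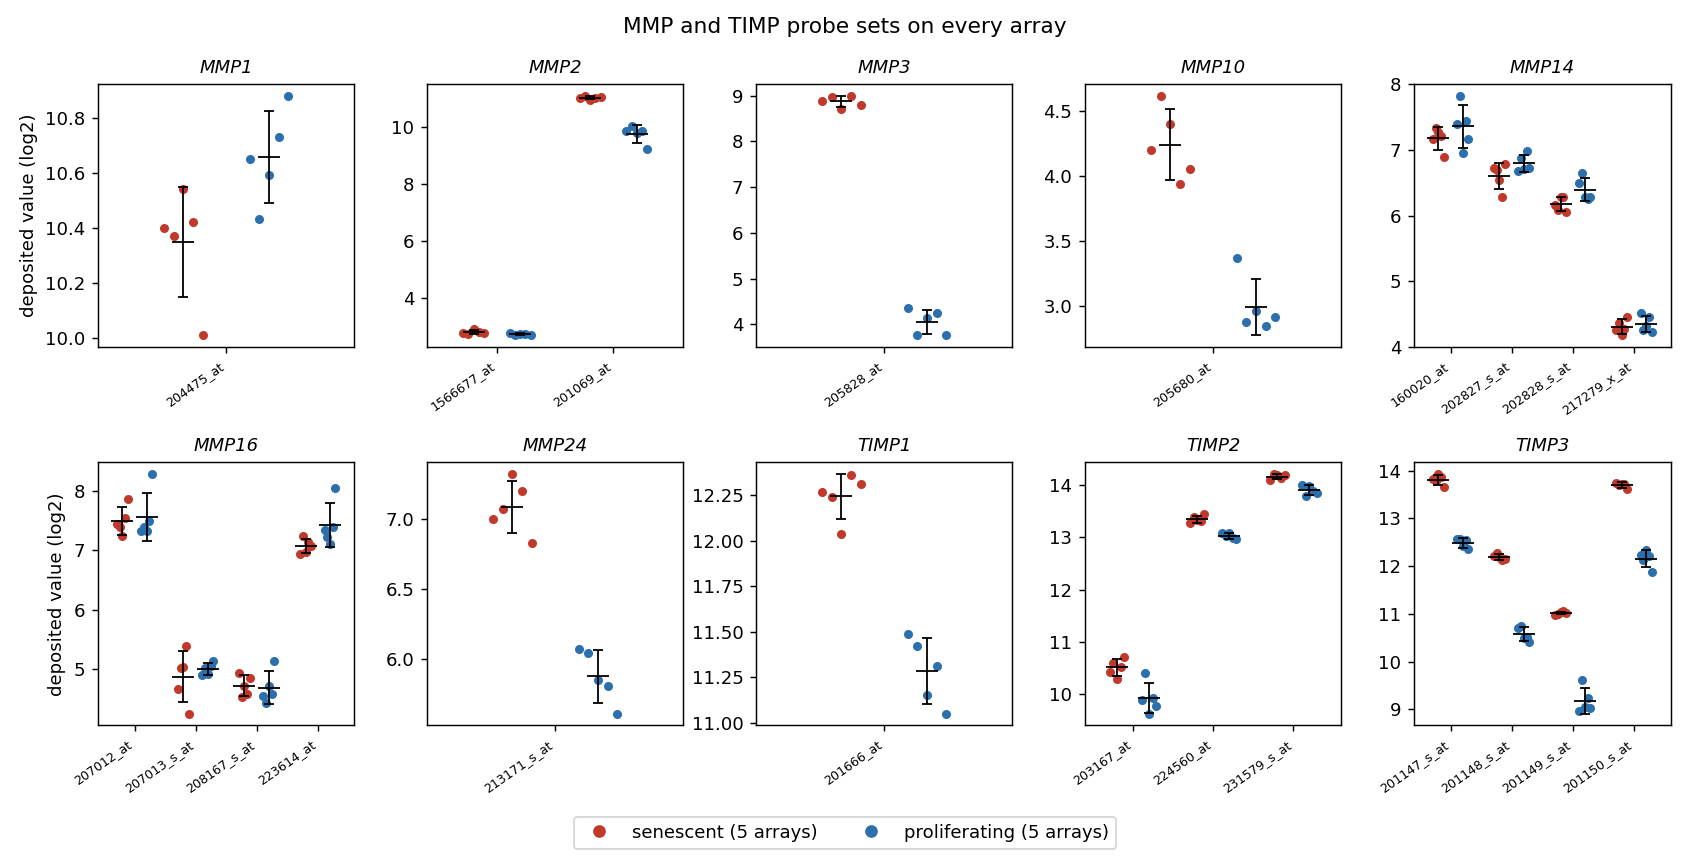
Deposited log2 value of each tested probe set on each array, with 1 panel for each of the 10 genes and its own vertical scale; red points are the 5 senescent and blue points the 5 proliferating arrays, and the bars give the mean and SD. For MMP3 the senescent points lie at 8.70 to 9.00 and the proliferating points at 3.77 to 4.35, whereas for MMP1 the 2 groups overlap between 10.43 and 10.54, and for MMP14 and MMP16 they overlap on every probe set.

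MMP2 encodes the gelatinase that degrades denatured collagen and basement membrane collagen, and its main probe set rose. Probe set 201069_at had values of 11.01, 11.09, 10.93, 11.00 and 11.03 on senescent arrays and 9.86, 10.02, 9.77, 9.84 and 9.23 on proliferating arrays. The senescent arrays were close together (SD 0.06) and all above the proliferating arrays, among which array 5 was the lowest. The difference was 1.27 (SE 0.13), or 2.41-fold (limma adjusted p = 1.4e-05). A low-signal probe set of MMP2, 1566677_at, was at 2.83 ± 0.06 on senescent and 2.75 ± 0.03 on proliferating arrays (SD, n = 5 each; adjusted p = 0.15 by limma). It was called lower, at -0.35, after centring on 11 uniformly expressed genes and higher, at 0.47, after centring on 17 classical reference genes.

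The membrane-bound enzymes differed among themselves. MMP24, known mainly from the nervous system, rose on 1 of its 2 probe sets. On 213171_s_at it had values of 7.00, 7.07, 7.32, 7.20 and 6.83 on senescent arrays and 6.07, 6.04, 5.85, 5.81 and 5.61 on proliferating arrays, with no overlap and a difference of 1.21 (SE 0.11), or 2.31-fold (limma adjusted p = 7.1e-06). Its other probe set, 208387_s_at, was below the filter at 1.93 ± 0.02 on senescent and 1.91 on proliferating arrays. Both carry the suffix the manufacturer gives to probe sets whose probes may match more than 1 transcript, and the RefSeq table also lists MMP24OS, a gene named for the opposite strand of MMP24; which transcript 213171_s_at read was not tested.

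MMP14, the membrane enzyme that activates proMMP2, gave no call on any of its 4 probe sets, and 1 of them had an unadjusted p under 0.05 by limma. The differences were -0.18, -0.19, -0.22 and -0.05, with limma adjusted p-values of 0.057 to 0.60, and the groups overlapped on all 4. On 160020_at the values were 7.17, 7.34, 7.27, 7.21 and 6.89 on senescent arrays and 7.40, 7.83, 6.96, 7.45 and 7.17 on proliferating arrays. The 95% confidence interval of that difference, -0.53 to 0.16, does not hold an increase of the size measured for MMP2. The probe set nearest to a call, 202828_s_at (-0.22, 95% confidence interval -0.42 to -0.02), passed the threshold with the filter at the 60th percentile (adjusted p = 0.049) and without proliferating array 4 (adjusted p = 0.043).

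MMP16, a related membrane enzyme, was not called on its 4 tested probe sets, which differed by -0.35 to 0.04. Their limma adjusted p-values were 0.09 to 0.83, and 0 had an unadjusted p under 0.05 by limma. The exact permutation test, two-sided, gave p = 0.0397 for 223614_at and 0.595 to 0.825 for the others. Proliferating array 5 stood high on 207012_at, at 8.28 against 7.32 to 7.50 on the other proliferating arrays, and on 223614_at, at 8.05 against 7.11 to 7.39. Senescent arrays had 7.24 to 7.86 on 207012_at and 6.94 to 7.24 on 223614_at. Without proliferating array 5, the difference of 223614_at was -0.20 and that of 207012_at 0.11, with limma adjusted p-values of 0.074 and 0.44. Without proliferating array 3, 223614_at reached a difference of -0.43 (adjusted p = 0.0498).

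All 3 inhibitor genes rose, TIMP3 the most, although 2 of the 3 TIMP2 probe sets changed sign after centring on 11 uniformly expressed genes. TIMP3 encodes the inhibitor that stays bound to the extracellular matrix and also blocks several ADAM proteases. Its 4 probe sets were higher by 1.32, 1.61, 1.84 and 1.54, which is 2.49- to 3.57-fold, with limma adjusted p-values of 2.7e-08 to 3.6e-07 and no overlap on any of them. Probe set 201149_s_at, with the greatest difference, had values of 10.98, 11.00, 11.04, 11.05 and 11.01 on senescent arrays and 8.96, 9.62, 9.04, 9.24 and 9.03 on proliferating arrays. The senescent values were close together (SD 0.03), and proliferating array 2 was the highest of its group. On 201147_s_at the values were 13.82, 13.78, 13.93, 13.87 and 13.65 on senescent arrays and 12.58, 12.58, 12.42, 12.54 and 12.35 on proliferating arrays. All 4 probe sets carry the suffix for probes that may match several transcripts.

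TIMP1 encodes the secreted inhibitor that forms complexes with proMMP9 and blocks most soluble metalloproteinases. Probe set 201666_at had values of 12.27, 12.24, 12.04, 12.36 and 12.31 on senescent arrays and 11.49, 11.42, 11.15, 11.31 and 11.05 on proliferating arrays. The groups did not overlap, and the difference was 0.96 (SE 0.09), or 1.94-fold (limma adjusted p = 1.1e-05).

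TIMP2 was called higher on its 3 probe sets by 0.59, 0.32 and 0.26, or 1.51-, 1.25- and 1.19-fold (limma adjusted p = 0.0045, 1.7e-04 and 0.0014), but after centring on 11 uniformly expressed genes the 0.32 and 0.26 changed sign, to -0.10 and -0.17. The 0.59, on 203167_at, also lost its call there (0.17, limma adjusted p = 0.25), so that none of the 3 was called and 9 member probe sets were called higher. On 224560_at the values were 13.27, 13.39, 13.33, 13.31 and 13.44 on senescent arrays and 13.09, 13.03, 13.08, 12.98 and 12.97 on proliferating arrays. The groups were apart on 224560_at and on 231579_s_at, and on 203167_at proliferating array 2, at 10.39, lay within the senescent range of 10.29 to 10.71. With the ACTB control as a covariate 231579_s_at lost its call (0.17, adjusted p = 0.084), and the calls of the other 11 increases stayed.

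The smaller differences depended on the scaling of the arrays. Centring each array on 28 housekeeping genes raised the difference of every probe set by 0.19, so that 73.6% of the calls of the whole array were increases, against 50.7% as deposited. Parts of that list, chosen after seeing the data, pulled opposite ways: 11 uniformly expressed genes lowered all differences by 0.42 and 17 classical reference genes raised them by 0.39. Across these and 2 further scalings, MMP2 on 201069_at (0.85 to 1.67), MMP3 (4.39 to 5.21), MMP10 (0.83 to 1.65), MMP24 on 213171_s_at (0.78 to 1.60), TIMP1 (0.54 to 1.35) and the 4 probe sets of TIMP3 (0.89 to 2.23) were called higher in all 5. MMP1 ran from -0.73 to 0.08, its sign changing with the 17 genes, and it was called in 3 of the 5. The 4 probe sets of MMP14 ran from -0.64 to 0.35 and those of MMP16 from -0.77 to 0.43. With the 11 genes all 4 of MMP14 (limma adjusted p = 4.6e-04 to 0.008) and all 4 tested ones of MMP16 (0.0028 to 0.046) were called lower. With the 17 genes 1 of each was called higher, MMP14 on 217279_x_at (0.35, limma adjusted p = 0.017) and MMP16 on 208167_s_at (0.43, limma adjusted p = 0.034). Since such a centring moves every probe set by the same amount, the differences of the members relative to the median of all tested probe sets do not depend on it.

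**Figure D3:**
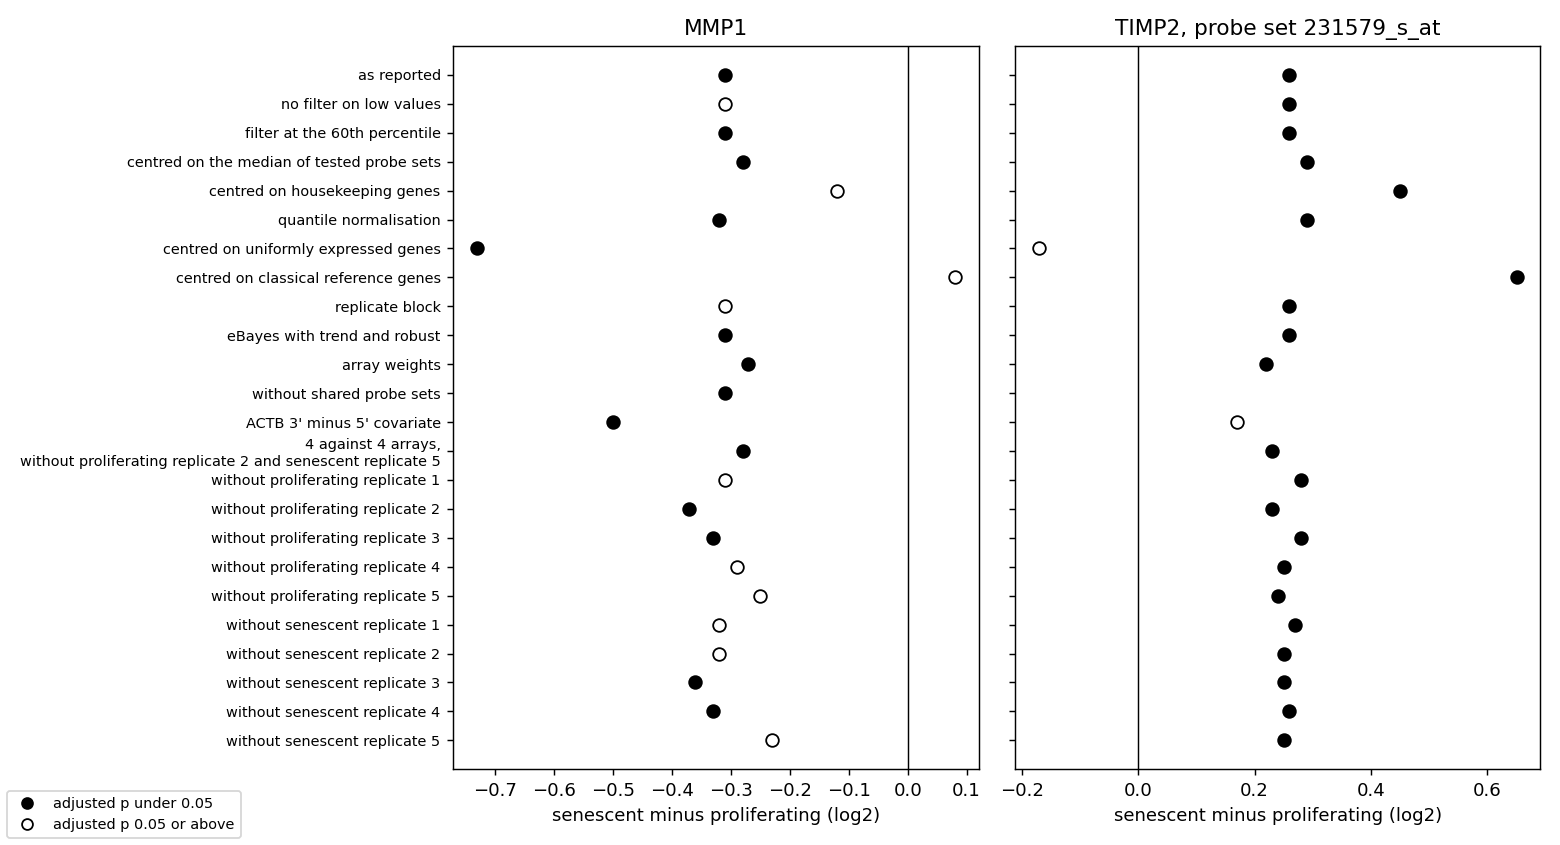
Difference in mean log2 value, senescent minus proliferating, of MMP1 and of TIMP2 probe set 231579_s_at as reported and under each alternative that tested the probe set; filled points have an adjusted p under 0.05. MMP1 runs from -0.73 to 0.08, turning positive with centring on 17 classical reference genes, and TIMP2 runs from -0.17 to 0.65, turning negative with centring on 11 uniformly expressed genes.

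Differences between the changes of members do not depend on how the arrays are centred. The change of MMP3 exceeded that of MMP1 by 5.13 (log2) and that of TIMP1 by 3.86. The change of MMP2 exceeded that of MMP14 by 1.46 and that of TIMP2 by 0.68 on 203167_at and 0.95 on 224560_at. The change of TIMP3 on 201147_s_at exceeded that of TIMP2 on 231579_s_at by 1.06. In each of these pairs the per-array differences of senescent and proliferating arrays did not overlap, which is given as a description and not as a test.

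Over the 10 arrays, the genes with profiles nearest to that of MMP3 were LIMCH1, WFDC1 and PTCHD4. After each profile was centred on its own mean, the root mean square distances from MMP3 were 0.18, 0.19 and 0.22 (log2) among 25925 tested probe sets, and these genes differed between senescent and proliferating cells by 4.58, 4.47 and 4.75. Nearest to MMP1 were PELP1, TTL and ITGBL1, at distances of 0.06, 0.07 and 0.07 and with differences of -0.28, -0.31 and -0.39.

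MMP1, MMP3 and MMP10 lie in a run of 9 neighbouring metalloproteinase genes on chromosome 11, in the order MMP7, MMP20, MMP27, MMP8, MMP10, MMP1, MMP3, MMP12 and MMP13 in the RefSeq table. Of its 5 tested genes 3 were called higher (MMP10, MMP3 and MMP12) and 1 lower (MMP1), where 31.0% of all tested genes were called higher and 30.3% lower. MMP12, the macrophage elastase, had values of 3.81, 3.31, 3.88, 4.19 and 3.84 on senescent arrays and 2.86, 2.85, 2.87, 2.83 and 2.82 on proliferating arrays. The groups did not overlap, all 10 values were below the 60th percentile of their arrays, and the difference was 0.96 (SE 0.13, limma adjusted p = 1.4e-04). MMP8, a collagenase known from neutrophils, differed by 0.04 and 0.05 on its probe sets (adjusted p = 0.31 for each by limma), and MMP7, MMP20, MMP27 and MMP13 were below the filter.

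Beside the run, 2 of the 5 tested flanking genes were called on at least 1 probe set. Of all tested genes, with 1 probe set a gene, 31.0% were called higher and 30.3% lower. BIRC2, an inhibitor of apoptosis, was at 12.60 ± 0.14 on senescent and 12.04 ± 0.07 on proliferating arrays (SD, n = 5 each; difference 0.56, limma adjusted p = 6.6e-05). TMEM123 (-0.15), the 3 probe sets of DYNC2H1 (-0.25 to -0.13) and the 2 of PDGFD (-0.09 and -0.04) were not called. The 3 probe sets of DCUN1D5, the gene next to MMP13, disagreed, at -0.60, 1.92 and 0.56, all called. BIRC3 had no probe set with 1 symbol.

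**Figure D4:**
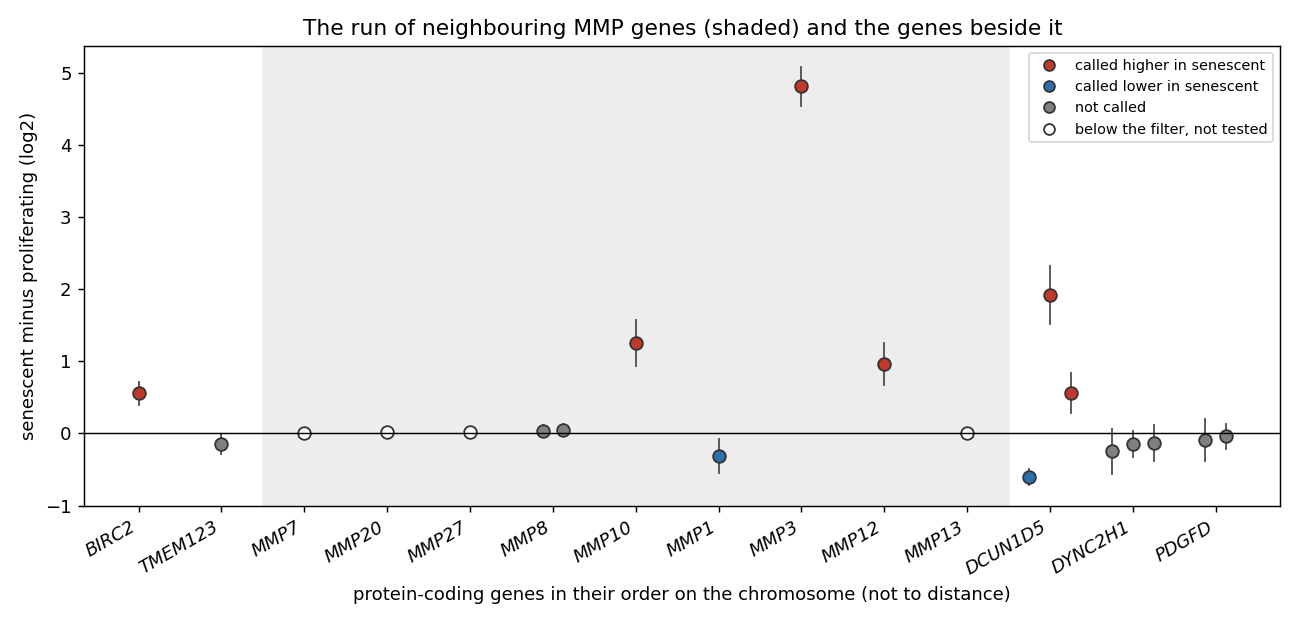
Difference in mean log2 value, senescent minus proliferating, with 95% confidence intervals, for each probe set of the run of metalloproteinase genes on chromosome 11 (shaded) and of the protein-coding genes beside it, in gene order and not to distance; open points were below the filter. MMP3 reaches 4.82 between MMP1 at -0.31, which turns positive (0.08) with centring on 17 classical reference genes, and MMP12 at 0.96, while MMP7, MMP20, MMP27 and MMP13 lie within 0.02 of 0.

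Of the 17 other metalloproteinase genes of the family, 15 had a probe set and 3 were tested. In tests of genes, the tested probe set of highest mean level stood for each gene, and p-values were adjusted over 12917 genes, of which 31.0% were called higher and 30.3% lower. MMP12 and MMP19 were higher and MMP8 was not called. MMP19, a metalloproteinase with basement membrane substrates, was at 7.26 ± 0.16 on senescent and 6.96 ± 0.22 on proliferating arrays (SD, n = 5 each; difference 0.30, limma adjusted p = 0.042, groups overlapping), and its other probe set, 204574_s_at, differed by 1.23. With no filter, or with the ACTB covariate, 1 of these 2 was called. The other 12 genes, among them the gelatinase MMP9 and the collagenase MMP13, had 21 probe sets, all below the filter, with differences of 0.01 to 0.04.

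The other inhibitors of metalloproteinases were lower or not called. Of 8 listed, 5 were tested, and 0 were higher and 3 lower by limma, as at an unadjusted p under 0.05, with a median difference of -1.58 against 0.04 over all tested genes. Among all tested genes 31.0% were called higher and 30.3% lower. SPOCK1, a secreted proteoglycan, was at 5.36 ± 0.22 on senescent and 7.24 ± 0.35 on proliferating arrays (SD, n = 5 each; -1.88, limma adjusted p = 4.2e-06). TFPI2, a Kunitz-type protease inhibitor, was at 9.57 ± 0.24 on senescent and 11.30 ± 0.25 on proliferating arrays (-1.73, limma adjusted p = 2.2e-06). A2M, the trap protein alpha-2-macroglobulin, fell by 1.58 (limma adjusted p = 1.1e-05), and SPOCK3 (0.07) was not called. RECK, a membrane-anchored inhibitor, was not called on the probe set that stood for it (0.09), whereas another, 205407_at, was higher by 1.24 (limma adjusted p = 8.7e-05). With centring on the housekeeping genes 2 of the 5 were called higher.

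Among activators of proMMPs, 4 of 7 tested genes rose and 1 fell, with a median difference of 0.52. Over all tested genes 31.0% were called higher and 30.3% lower. PCSK5, a proprotein convertase, was at 7.15 ± 0.12 on senescent and 5.37 ± 0.51 on proliferating arrays (SD, n = 5 each; 1.78, limma adjusted p = 3.5e-05). PLAT, the tissue plasminogen activator gene, rose by 1.06, and FURIN and PCSK7, which are convertases too, by 0.61 and 0.52 (limma adjusted p = 0.008, 0.014 and 0.046). The groups overlapped for FURIN and PCSK7. Adjusted over probe sets, that of PCSK7, 232521_at, was not called (limma adjusted p = 0.054), whereas its other, 203118_at, was higher by 1.08 (limma adjusted p = 7.0e-05). PLAUR, the receptor of urokinase, fell by 0.23, a call lost with centring on housekeeping genes, and urokinase itself, PLAU, was not called (0.08).

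Cell surface partners of these enzymes and inhibitors rose in 9 of 11 tested cases, with a median difference of 0.47, and 0 fell by limma, also at an unadjusted p under 0.05. For this list and the next, the shares over all tested genes were 31.0% called higher and 30.3% lower. CLDN1, a tight junction protein that can recruit membrane metalloproteinases and MMP2, was at 13.23 ± 0.04 on senescent and 10.18 ± 0.37 on proliferating arrays (SD, n = 5 each; 3.05, limma adjusted p = 4.6e-08). ITGA2, a collagen receptor subunit, rose by 1.56, the hyaluronan receptor CD44 by 0.71 and the endocytic receptor LRP1 by 0.70. ADAM and ADAMTS proteases, several of which TIMP3 inhibits, rose in 3 of 7 tested cases and fell in 0 by limma (median 0.15), against 4 and 0 at an unadjusted p under 0.05. ADAMTS5, an aggrecan-cleaving enzyme, was at 10.34 ± 0.09 on senescent and 4.19 ± 0.93 on proliferating arrays (SD, n = 5 each; 6.15, limma adjusted p = 2.2e-07), with 3 of the 5 proliferating values below the 60th percentile. ADAM19 rose by 1.17 and ADAM9, for which the groups overlapped, by 0.16. With centring on the housekeeping genes 6 of these 7 proteases and 10 of the 11 surface partners were called higher. With the ACTB covariate these counts were 2 and 7. Centring on the 11 uniformly expressed genes, which lowered all differences by 0.42, was not run on the gene lists. An increase smaller than that would change sign with it.

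Transcription factors and cytokines known to regulate metalloproteinase genes were lower for 10 and higher for 4 of 16 tested genes, with a median difference of -0.45. Over all tested genes 30.3% were called lower and 31.0% higher. IL1B, a cytokine that induces MMP1 and MMP3 in fibroblasts, was at 3.17 ± 0.21 on senescent and 6.46 ± 1.18 on proliferating arrays (SD, n = 5 each; -3.29, limma adjusted p = 1.6e-04). Its level was below the 60th percentile on all 5 senescent arrays and on 1 proliferating array. IL6 was at 5.07 ± 0.35 on senescent and 6.91 ± 0.75 on proliferating arrays (-1.84, limma adjusted p = 7.6e-04). The IL6 groups overlapped, with a highest senescent value of 5.64 and a lowest proliferating value of 5.58. FOSL2, an AP-1 subunit, fell by 1.33 and ETV5, an ETS factor, rose by 0.86.

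Matrix proteins that these enzymes cut were higher for 6 and lower for 4 of 16 tested genes, with a median difference of 0.04, equal to that of all tested genes. The shares over all tested genes were 31.0% called higher and 30.3% lower. At an unadjusted p under 0.05 by limma 6 were higher and 6 lower, and with centring on the housekeeping genes 9 were called higher and 2 lower. BGN, the small proteoglycan biglycan, was at 3.88 ± 0.30 on senescent and 9.61 ± 0.49 on proliferating arrays (SD, n = 5 each; -5.73, limma adjusted p = 1.1e-08). All 5 senescent values of BGN were below the 60th percentile of their arrays, which makes the size of this decrease uncertain. Its other tested probe sets, 201262_s_at and 213905_x_at, were also called lower but disagreed in size, at -1.44 and -6.18. HSPG2, which encodes perlecan, rose by 1.07, LAMB1, a laminin chain, rose by 0.80, and COL3A1, a fibrillar collagen, fell by 0.50. With the ACTB control as a covariate 3 of the 16 were called higher.

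**Figure D5:**
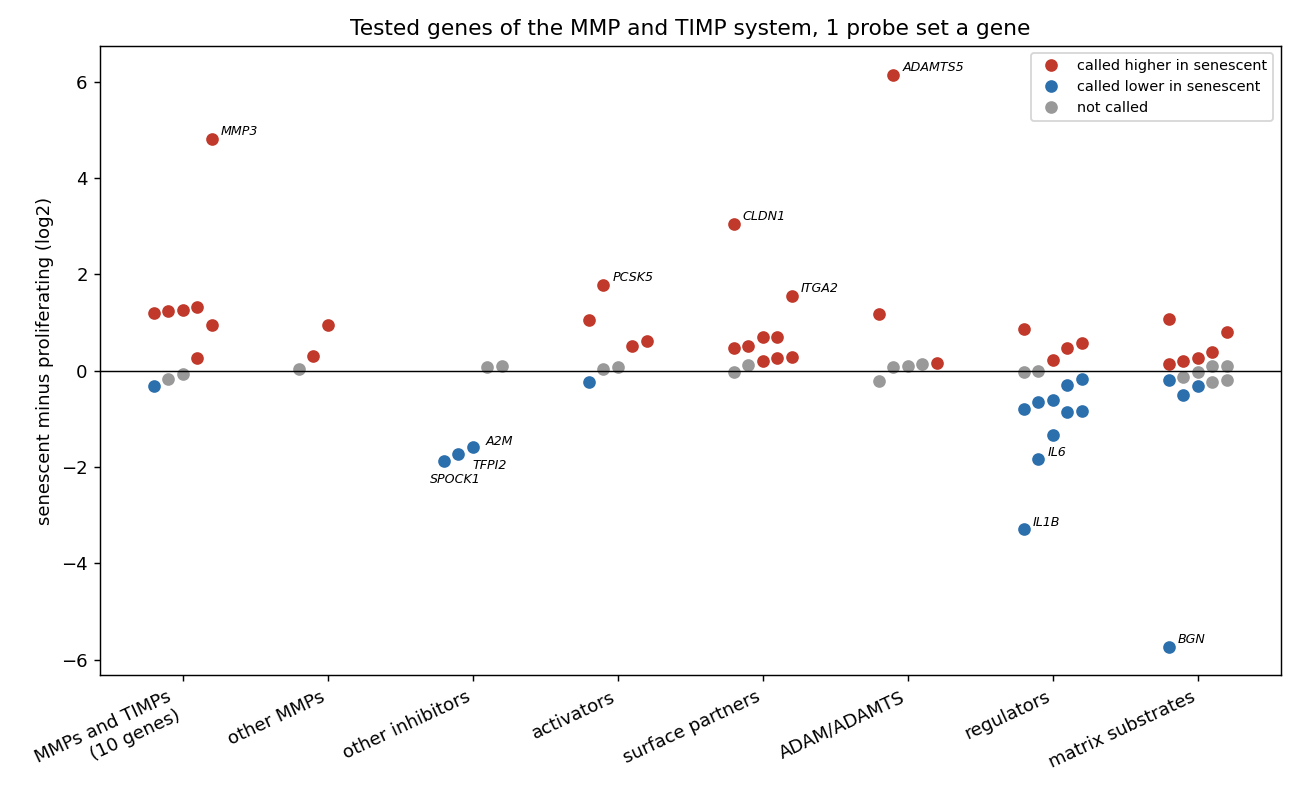
Difference in mean log2 value, senescent minus proliferating, of each tested gene of the listed groups, with 1 probe set a gene; red points were called higher in senescent cells, blue points lower and grey points not called, and names are given beyond 1.5. The other inhibitors lie at -1.88 to 0.09, the surface partners at -0.03 to 3.05 and the regulators at -3.29 to 0.86; with centring on 17 classical reference genes MMP1 (-0.31) would be at 0.08, and with centring on 11 uniformly expressed genes TIMP2 (0.26) would be at -0.17.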

How the data were processed

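RNA was purified with Trizol, biotin-labelled and hybridised to Affymetrix arrays, per the labels' protocols. The deposited values are log2 values, 1 per probe set and array. Partek and GCRMA are named in the submitters' processing notes; how they were set is not given in the sources used here. A base of 2 for the log was inferred from the values. Scanner files and detection calls were not used here. The number of arrays limits the precision.

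The platform annotation named the probe sets, with symbols updated through RefSeq (GRCh38.p14). Controls (62) were left out; of the rest 41091 had a single symbol, 1801 several and 11721 none. The functions lmFit and eBayes (limma 3.58.1, R 4.3.3, data.table version 1.17.8) gave two-sided tests, and single values also had an exact permutation test over 252 assignments, for which 0.00794 is the smallest p. The fit was tested on simulated data, with 50 probe sets changed at each size, far fewer than were called in these data. It called 46% of simulated differences of 0.5 (log2), 76% of 1, 94% of 2 and 100% of 4. Of its 166 calls 8 were false. Because of the smaller number of changes, these shares may not hold for the members. Sequences and figures used Python 3.11.15, pandas 2.3.3, numpy 2.4.6 and matplotlib 3.10.9.

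The members, gene lists and tests were chosen with earlier results of these data known. Named genes were all members, every tested gene of the other metalloproteinases, up to 4 called genes of each other list with the largest differences, 3 genes on either side of the chromosome 11 run, and 3 nearest profiles for MMP3 and MMP1. The genes PLAUR, PLAU, RECK, SPOCK3, DCN, FN1, MMP9, MMP24OS and LMNB1 were named outside that rule. Alternatives were other filters, 5 other scalings, a replicate block, other variance models, other summaries of a gene's probe sets, the ACTB covariate and arrays left out. Centring on 11 and on 17 housekeeping genes was chosen after seeing the data.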

Additional observations from a re-analysis of the deposited data

Results flagged for a closer look

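Groups of 5 arrays were checked for a value far from its neighbours in 50 cases, of which chance alone would flag about 1 in 20, and 3 were found. MMP10 on 205680_at had 3.37 on proliferating array 1, where the next highest proliferating value was 2.96, and this gap made up 0.773 of the range of the group. MMP16 on 207012_at had 8.28 on proliferating array 5, where the next value was 7.50, a gap of 0.81 of the range. TIMP3 on 201150_s_at had 13.61 on senescent array 5, where the next lowest value was 13.71, a gap of 0.789 of a narrow range of 13.61 to 13.74. Without these arrays MMP10 and the TIMP3 probe set were still called higher and the MMP16 probe set was still not called.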

How the results depend on the processing

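Under the alternatives, 501 values were computed for the 22 tested member probe sets and for the 10 genes with 1 value a gene. Of these, 471 kept their call, including 19 that changed sign and were called neither as reported nor under the alternative, and 30 did not. The count of higher members, 12, became 6 of 11 tested without the probe sets that may match several transcripts, since fewer were tested. The count of lower members, 1, became 0 with no filter, with centring on housekeeping genes or on 17 classical reference genes and with the replicate block, where MMP1 lost its call. It became 2 (with MMP14 on 202828_s_at) with the filter at the 60th percentile. With centring on 11 uniformly expressed genes, which lowered all differences by 0.42, it became 10. Leaving out each array in turn gave 12 higher members in each case and 0 to 2 lower ones, and 8255 to 8718 higher and 8081 to 8521 lower probe sets on the whole array. On the whole array, 8797 were higher and 8563 lower as reported. Counts were 17056 higher and 6122 lower with housekeeping centring (73.6% higher), 3943 and 20586 with the 11 genes (16.1%), 20341 and 4189 with the 17 genes (82.9%), against 50.7% as reported, and 5339 and 4847 without the shared probe sets. Direction was reversed, for a probe set called before or after, with the 17 genes for MMP1 (0.08) and MMP14 on 217279_x_at (0.35), and with the 11 genes for TIMP2 on 224560_at (-0.10) and 231579_s_at (-0.17), MMP2 on 1566677_at (-0.35) and MMP16 on 208167_s_at (-0.39). The deviations of same-numbered arrays from their group means had correlations of -0.06 to 0.09, and not every array correlated best with its own number. Whether arrays of the same number were handled together was not tested. The replicate block gave 12 higher and 0 lower members, and the adjusted p of MMP1 was 0.097. Low signal limits MMP10 and MMP12 and, in 1 group, MMP3 (proliferating arrays), BGN and IL1B (senescent arrays) and ADAMTS5 (3 of 5 proliferating arrays): the deposited values carry the submitters' background correction, which sets how large such differences are and was not varied here.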

Other observations

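Several genes of the system had probe sets that differed among themselves, which a single value per gene hides. CD44 rose by 0.71 on the probe set that stood for it, while its 12 other tested probe sets differed by 0.79 to 2.63. RECK differed by 0.09 on the probe set that stood for it and by -0.05, -0.07, 1.24 and -0.53 on the others, of which only the 1.24 was called. DCN, the small proteoglycan decorin, differed by 0.10 on its probe set, which was not called, and by -2.11 to 0.42 on 6 others, of which 2 were called lower (-1.75 and -2.11) and 2 higher (0.17 and 0.42). FN1, the fibronectin gene, rose on all 7 of its tested probe sets, by 0.14 to 1.21.

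The arrays also differed in where they stood within their groups. Among the 22 tested member probe sets, proliferating array 1 was the highest of its group on 9 and proliferating array 5 the lowest on 8 and the highest on 5. Senescent array 5 was the lowest of its group on 7.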
